A study of Mus musculus with 12 samples.

Results

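The contactins are a family of 6 cell surface proteins, encoded in the mouse by Cntn1, Cntn2, Cntn3, Cntn4, Cntn5 and Cntn6. Their transcripts were followed in male germ cells from fetal life to shortly after birth. The members are the 6 rows, of 55487 in the deposited gene table, whose Ensembl identifier carries one of these symbols. The family was selected on the counts of Cntn6 in the E13.5 and E16.5 libraries, seen in an earlier analysis of these data. Cntn6 is therefore described without a test, and the 5 other members, which entered by name, were tested. All 6 passed the filter on low values, as 6 of the 22384 genes that did, but most passed through the stages where they are high, so counts over them describe the family and do not support a direction.

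Contactins are held on the outer membrane by a glycosylphosphatidylinositol (GPI) anchor and carry immunoglobulin and fibronectin type III domains. They are known from the nervous system, where they bind one another, adhesion proteins of the L1 family and receptor phosphatases, and so take part in axon guidance, synapse formation and the organisation of myelinated fibres. They have no cytoplasmic part, and partners such as the contactin-associated proteins link them to the cell interior. Contactins are not among the genes by which male germ cells are usually described.

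The libraries came from gonocytes, the precursors of spermatogonia in the fetal and newborn testis. They were isolated from mice carrying the Mvh-Venus transgene, in which a fluorescent protein marks cells that express the germ cell gene Mvh (Ddx4). There were 12 libraries, 3 each at E13.5 and at E16.5 (days of embryonic life), at birth (P0) and at postnatal day 3 (P3). Titles and source names call every sample wild type (WT), whereas the genotype tag reads Morc1 (+/-) at E13.5 and P0 and Morc1 (-/-) at E16.5 and P3. Samples were grouped by stage, and a genotype difference cannot be told apart from stage between consecutive stages if the tag is right. Libraries of P0 and E13.5 carry 1 tag in common, and so do those of P3 and E16.5. The labels do not say whether animals were pooled, nor that replicates came from separate animals, so p-values measure only the spread between these samples, which may be technical.

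Reads assigned to genes numbered 40946616 to 51533747 per library. Values are normalized counts, that is a gene's reads over the size factor of its library, and libraries are named by stage and by the number 1, 3 or 4 in the table. Between 16266 and 16311 genes had a normalized count of at least 10 in the E13.5 libraries, 19761 to 20150 at E16.5, 21270 to 21645 at P0 and 18252 to 18428 at P3. The germ cell markers, 8 genes that include Ddx4 and Dazl, summed to between 152475 (the lowest P0 library) and 297710 (the highest E16.5 library), and none was at or under 3 reads throughout a stage. Ddx4 itself averaged 58928 ± 3355 in the E13.5 libraries, 49639 ± 4831 in those of E16.5, 23180 ± 1089 in those of P0 and 49336 ± 277 in those of P3 (SD, n = 3). In reads it was at 52965 to 59434, 51802 to 58688, 42455 to 46578 and 48989 to 50606 in stage order. Mean size factors were 0.939, 1.129, 1.942 and 1.013, so the low P0 value of Ddx4 depends largely on the scaling.

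Transcription start regions are shown for 3 members that were never above 3 reads in an E13.5 library and that differ in CpG content; Cntn6 was highest at E16.5, and Cntn1 and Cntn5 at P0. RefSeq lists 3 starts for Cntn1 and 2 for Cntn5, and the ones shown for these genes match their starts in GENCODE. The Cntn6 window does not: it begins at 104492794, after the GENCODE start at 104492790, and so lies inside that gene. Each is a window of 300 bases, 250 before to 50 after a start, from RefSeq on GRCm38.p6, written on the strand of the gene with each CpG in capitals.
Cntn6, chr6:104492794-104493093, + strand: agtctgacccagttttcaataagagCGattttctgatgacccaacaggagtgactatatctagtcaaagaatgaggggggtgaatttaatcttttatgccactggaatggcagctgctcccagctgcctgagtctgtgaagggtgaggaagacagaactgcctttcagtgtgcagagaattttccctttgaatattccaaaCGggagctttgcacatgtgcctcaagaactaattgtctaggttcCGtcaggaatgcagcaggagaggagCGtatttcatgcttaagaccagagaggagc
Cntn1, chr15:92050915-92051214, + strand: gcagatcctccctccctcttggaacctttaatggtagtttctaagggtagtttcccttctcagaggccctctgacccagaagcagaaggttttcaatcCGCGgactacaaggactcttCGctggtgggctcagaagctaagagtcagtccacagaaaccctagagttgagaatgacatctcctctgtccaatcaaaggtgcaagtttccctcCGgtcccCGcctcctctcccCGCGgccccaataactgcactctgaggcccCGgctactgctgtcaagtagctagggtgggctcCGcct
Cntn5, chr9:10904726-10905025, - strand: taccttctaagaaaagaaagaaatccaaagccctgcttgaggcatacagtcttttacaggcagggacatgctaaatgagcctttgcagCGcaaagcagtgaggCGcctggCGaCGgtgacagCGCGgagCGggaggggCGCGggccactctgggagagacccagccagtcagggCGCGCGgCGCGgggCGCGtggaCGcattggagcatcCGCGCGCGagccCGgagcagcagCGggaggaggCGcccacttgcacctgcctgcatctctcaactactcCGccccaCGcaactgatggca

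The Cntn6 window holds 4 CpG, the Cntn1 window 9 and the Cntn5 window 26, against a median of 7 over 32851 windows of the same length. GC content was 46.3%, 55.3% and 63.7% in the same order, against a median of 52.7%. A few motifs were searched on both strands. TATAAA was in none of the 3 windows and in 13.6% of all windows, and CACGTG was in none of the 3 and in 7.15% of all. CCAAT was found in the Cntn1 and Cntn5 windows and in 37.4% of all, and GGGCGG in the Cntn5 window and in 35.7% of all. The 2 Cntn1 windows not shown hold 5 and 4 CpG at 34.7% and 45.0% GC, nearer to the Cntn6 window than the one shown, and the first of them, at 92127878, holds TATAAA. The other Cntn5 window holds 26 CpG. DNA methylation and chromatin were not analysed here.

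Cntn6, a contactin known as a ligand of Notch receptors and as a binding partner of the adhesion protein Chl1, gave the highest level of the family. It lies on chromosome 6 at 104492790 to 104863406 on the + strand (ENSMUSG00000030092, a protein-coding gene in GENCODE M21 on GRCm38). No read was assigned to it in any of the 3 E13.5 libraries. It was at 1494, 1564 and 1163 normalized counts in E16.5 libraries 1, 3 and 4, from 1469 to 1682 reads each. It was at 464, 422 and 354 at P0 and at 143, 98.2 and 159 at P3. Stages did not overlap, and their order was E16.5, P0, P3 and E13.5.

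Cntn6 averaged 1407 ± 214 in E16.5 libraries, 413.2 ± 55.5 in P0 libraries and 133.5 ± 31.5 in P3 libraries (SD, n = 3). Against the floor of 3 reads per library at E13.5, the E16.5 level was at least 431-fold higher and the P0 level at least 127-fold higher. These values selected the family and carry no test. The P0 mean was 506 with median-of-ratios size factors and 654.9 with equal library totals, and it stayed between those of E16.5 and P3 under each of the 4 other scalings tried.

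**Figure D1:**
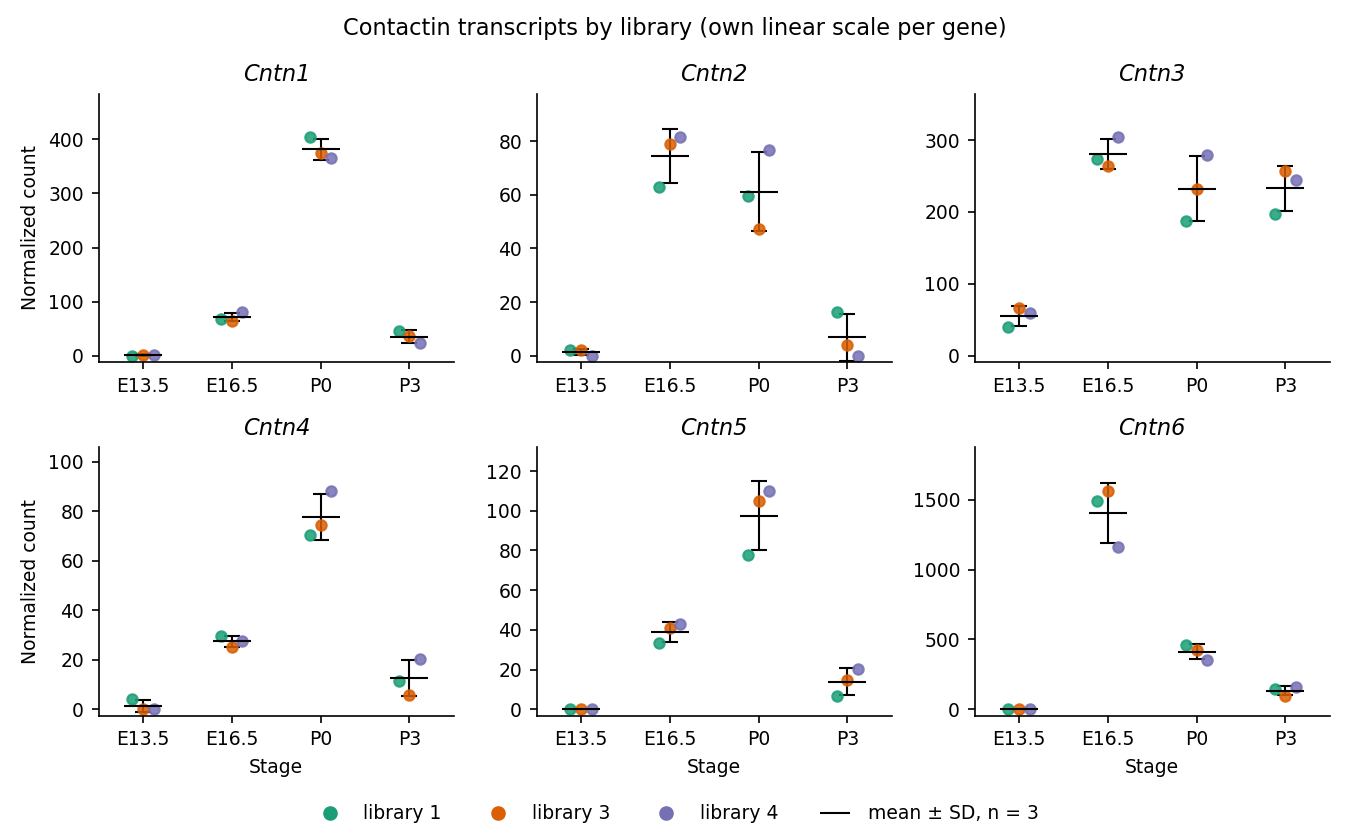
Normalized counts of the 6 contactins (y axis, linear, own scale for each gene) by stage (x axis); points are libraries 1, 3 and 4 and black marks the mean ± SD of 3 libraries. Every gene has its lowest mean at E13.5; Cntn6 is highest at E16.5 (mean 1407) and Cntn1 at P0 (mean 381.5).

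Cntn1 is an adhesion protein of axons and of myelinating glia, where it pairs with contactin-associated protein 1. It lies on chromosome 15 at 92051165 to 92341967 on the + strand (ENSMUSG00000055022). It was at 0, 2.18 and 2.103 normalized counts at E13.5, no more than 2 reads per library. It was at 68.7, 65.1 and 80.7 at E16.5, at 404.1, 374.9 and 365.4 at P0, and at 46.5, 36.3 and 23.3 at P3. The libraries of each stage were apart from those of every other stage, with P0 highest.

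Cntn1 rose by at least 21.9-fold from the E13.5 floor to E16.5 (limma log2 fold change 5.07, SE 0.41, adjusted p 5.76e-09). It rose again to P0, by 2.40 on the log2 scale (adjusted p 8.39e-05, SE 0.41), and fell by 3.45 to P3 (adjusted p 9.21e-07, SE 0.41). P3 was also below E16.5 (log2 fold change -1.04, adjusted p 0.0323, SE 0.41). That last call did not hold in 5 of the fits that left out 1 library. Without E16.5 libraries 1, 3 or 4 its limma adjusted p was 0.0622, 0.054 and 0.0925, and without P3 libraries 3 or 4 it was 0.0538 and 0.133. Nor did the call hold with a pseudocount of 0.1 (limma adjusted p 0.322) or with no filter on low values (0.119).

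Cntn2, also called TAG-1, an adhesion protein of growing axons, lies on chromosome 1 at 132509427 to 132543256 on the - strand (ENSMUSG00000053024). It was at 2.11, 2.18 and 0 at E13.5, at 63.0, 79.0 and 81.5 at E16.5, at 59.5, 47.3 and 76.7 at P0, and at 16.47, 3.93 and 0 at P3. E16.5 and P0 overlapped, and so did E13.5 and P3. Cntn2 rose by at least 22.8-fold to E16.5 (limma log2 fold change 5.13, SE 0.75, adjusted p 8.43e-06). Its log2 fold change at P0 against E16.5 was -0.30 (adjusted p 0.749, SE 0.75), and it fell by 3.79 at P3 against P0 (adjusted p 0.000224, SE 0.75). The P3 libraries spanned 0 to 17 reads.

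Cntn3, a contactin of brain neurons, lies on chromosome 6 at 102162655 to 102573101 on the - strand (ENSMUSG00000030075). Unlike the other members it had more than 10 normalized counts in every library. It was at 40.1, 66.4 and 59.9 at E13.5, at 272.9, 264.1 and 303.9 at E16.5, at 186.9, 232.0 and 278.5 at P0, and at 197.7, 256.3 and 243.9 at P3. E13.5 was below the other stages, P0 overlapped both E16.5 and P3, and P3 stayed just under E16.5 without overlap.

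Cntn3 rose at E16.5 by a log2 fold change of 2.35 (limma adjusted p 2.01e-08, SE 0.21), or 5.05-fold between the means. At P0 against E16.5 the log2 fold change was -0.29 (adjusted p 0.249, SE 0.21) and at P3 against P0 it was 0.01 (adjusted p 0.964, SE 0.21). The latter was -0.83 with equal library totals (adjusted p 0.00304). At P3 against E16.5 it was -0.27 (adjusted p 0.252).

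Cntn4, known for its part in wiring of the olfactory and visual systems, lies on chromosome 6 at 105677660 to 106699310 on the + strand (ENSMUSG00000064293). It was at 4.22, 0 and 0 at E13.5, at 29.6, 25.1 and 27.7 at E16.5, at 70.5, 74.4 and 88.3 at P0, and at 11.6, 5.89 and 20.2 at P3. The stages did not overlap. Cntn4 rose at E16.5 by a log2 fold change of 4.03 (limma adjusted p 6.45e-06, SE 0.57). It rose at P0 by 1.46 (adjusted p 0.0367, SE 0.57) and fell by 2.68 at P3 (adjusted p 0.000483, SE 0.57). The P0 call did not hold when any of the 6 libraries of E16.5 and P0 was left out, although its log2 value stayed between 1.37 and 1.53. Its limma adjusted p was 0.0668 without E16.5 library 1, 0.0884 without 3 and 0.0761 without 4. Without P0 libraries 1, 3 and 4 it was 0.0675, 0.0755 and 0.0984. The P0 call was also lost with a pseudocount of 0.1 (limma adjusted p 0.294) and with no filter on low values (0.142).

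Cntn5, which takes part in synapse formation in the auditory and visual systems, lies on chromosome 9 at 9660891 to 10904775 on the - strand (ENSMUSG00000039488). It had no read at E13.5. It was at 33.4, 40.9 and 42.7 at E16.5, at 77.8, 104.9 and 110.0 at P0, and at 6.78, 14.7 and 20.2 at P3, with no overlap between stages. Cntn5 rose at least 11.95-fold to E16.5 (limma log2 fold change 5.31, SE 0.41, adjusted p 3.22e-09). It rose by 1.29 on the log2 scale to P0 (adjusted p 0.0120, SE 0.41) and fell by 2.83 to P3 (adjusted p 9.23e-06, SE 0.41).

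**Figure D2:**
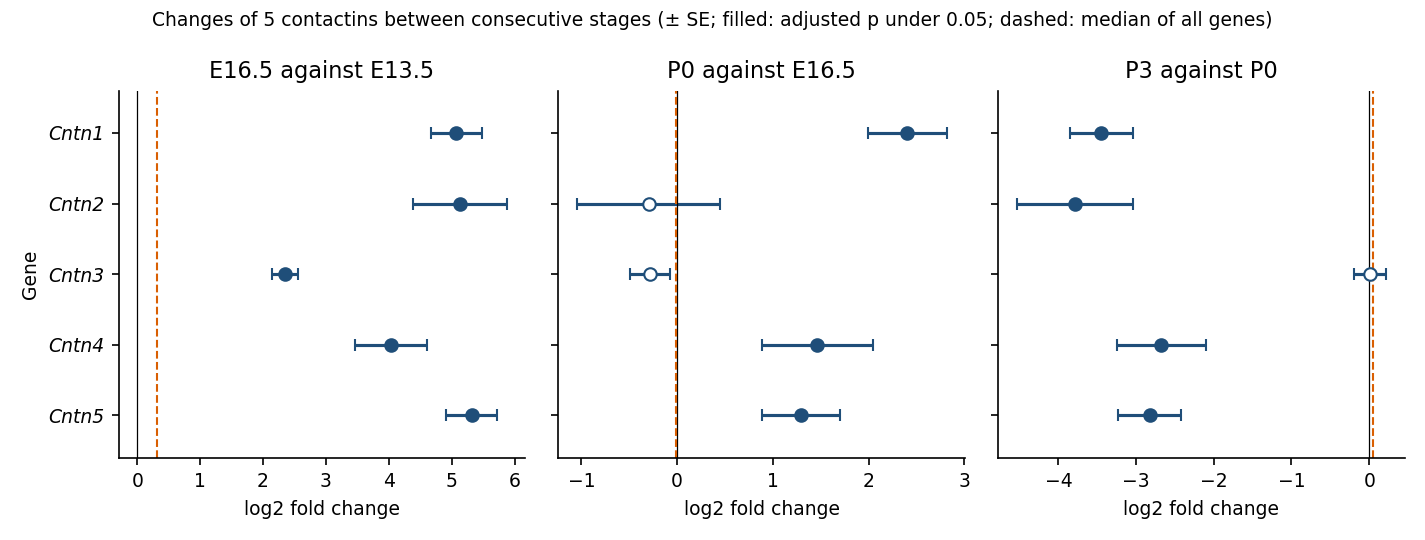
Log2 fold changes (x axis, ± SE) of the 5 tested contactins (y axis) at each consecutive comparison; filled points have a limma adjusted p under 0.05 and the dashed line is the median of all genes tested. The 5 genes lie between 2.35 and 5.31 at E16.5 against E13.5, where the median of all genes is 0.31; Cntn3 is near 0 for P3 against P0, where the others are at -2.68 or below.

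Set beside the whole table, the shares of genes that changed were large at every step. At E16.5 against E13.5 the 5 tested contactins were all higher, where 45.5% of all genes tested were called higher and 34.6% lower. Their median log2 fold change was 5.07, against 0.31 over all genes. At P0 against E16.5, Cntn1, Cntn4 and Cntn5 were higher and none was lower, where 27.6% of genes were called higher and 33.4% lower, with medians of 1.29 for the 5 and -0.01 for all genes. At P3 against P0, Cntn1, Cntn2, Cntn4 and Cntn5 were lower, where 40.1% of genes were called higher and 36.4% lower, with medians of -2.83 and 0.05. The F-test over stages called all 5 (adjusted p up to 4.88e-06), but it called 95.2% of all genes. With equal library totals the median over all genes moved to 0.84, 0.68 and -0.86 at the 3 consecutive steps, and changes quoted under that scaling include this shift.

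Stages that carry the same genotype tag were compared next. At P0 against E13.5, both tagged Morc1 (+/-), the 5 tested contactins were higher, where 45.7% of genes were called higher and 40.5% lower. Log2 fold changes there were 7.48 for Cntn1, 4.83 for Cntn2, 2.06 for Cntn3, 5.50 for Cntn4 and 6.61 for Cntn5, with limma adjusted p up to 1.33e-05. At P3 against E16.5, both tagged Morc1 (-/-), Cntn1, Cntn2 and Cntn5 were lower, where 34.2% of genes were called higher and 35.2% lower. Cntn2 fell by 4.09 there and Cntn5 fell by 1.53 (limma adjusted p 0.000129 and 0.00327). Cntn4 was at a log2 fold change of -1.21 (limma adjusted p 0.0714, edgeR 0.0356, DESeq2 0.0242), and neither it nor Cntn3 passed the limma test. The comparisons share stages, so they are not independent of each other.

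Levels can be set side by side once divided by exon length. In normalized counts per kb of exon, the 6 members had a sum of 8.71 ± 1.86 for E13.5, 285.6 ± 27.9 for E16.5, 175.8 ± 1.86 for P0 and 64.1 ± 5.09 for P3 (SD, n = 3). Cntn3 made up 94.1% ± 4.38 of this sum at E13.5, where 44 to 65 reads per library fell on the whole family. At E16.5 Cntn6 made up 75.5% ± 4.43 and Cntn3 14.8% ± 2.66. At P0 the sum was shared by Cntn6 (36.2% ± 5.22), Cntn1 (23.0% ± 1.46), Cntn3 (19.6% ± 3.67) and Cntn5 (12.2% ± 2.06). At P3 Cntn3 was again the largest part, at 54.0% ± 7.19, ahead of Cntn6 at 31.9% ± 6.35. A share within a library does not depend on the size factor.

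**Figure D3:**
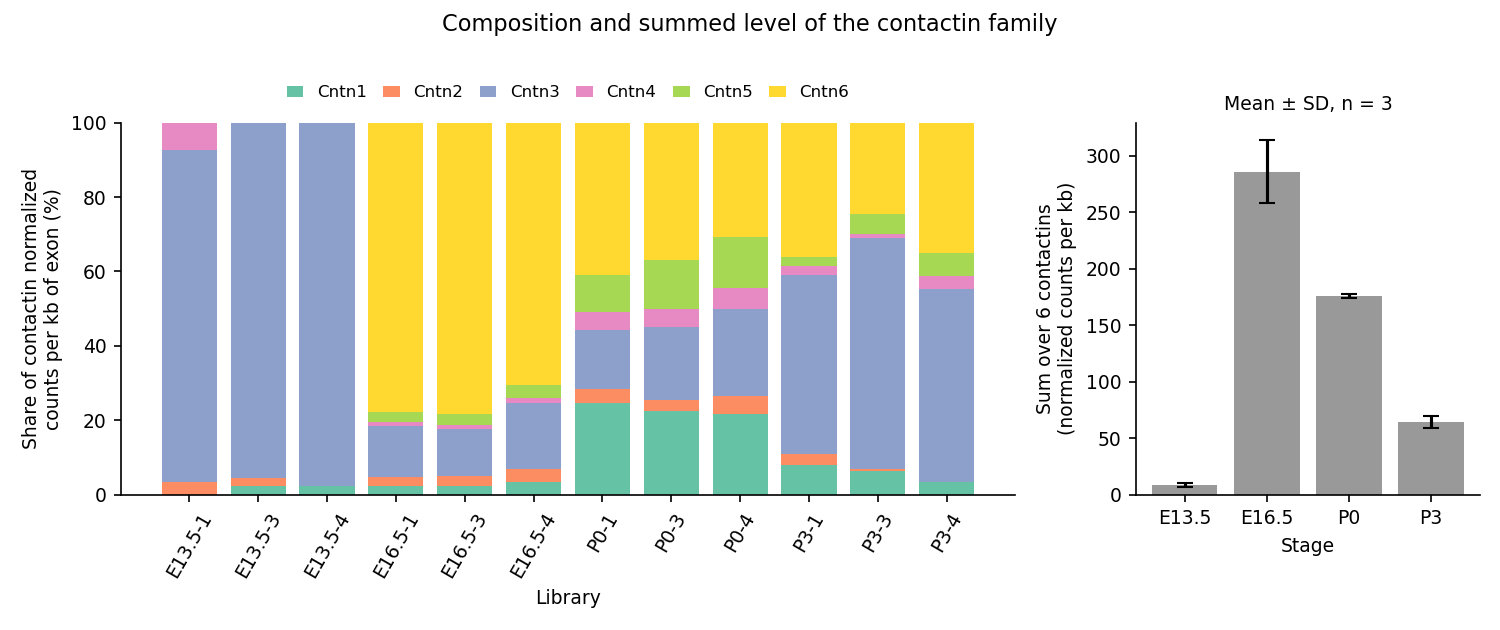
Left, the share of each contactin (y axis, % of the family's normalized counts per kb of exon) in each library (x axis); right, the sum over the 6 contactins by stage, mean ± SD of 3 libraries. Cntn3 holds most of the E13.5 bars (94.1%) and Cntn6 most of the E16.5 bars (75.5%), while at P0 Cntn1 and Cntn5 together with both of them share the bar.

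Per kb, the contactins were mostly low among the genes tested. Cntn6 at E16.5, at 216 per kb, lay above 71.3% of 22364 tested genes with an exon length. It lay above 51.7% at P0 and 37.4% at P3. Cntn1 at its P0 peak, at 40.4 per kb, lay above 42.3% of genes, and Cntn3 at E16.5, at 41.6 per kb, above 45.5%. Cntn2 and Cntn4 at their peaks, at 8.01 and 9.16 per kb, lay above 19.3% and 14.5%. In bulk samples, fewer cells with a transcript and less of it per cell cannot be told apart.

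Sequence shared with other annotated transcripts was counted, since the treatment of reads that match several places is not given. No 50-base word of the Cntn4 and Cntn6 transcripts occurred in transcripts of other genes, and 0.734% to 4.38% of the words of the other members did, with Cntn5 highest. In the annotation, exons of 1 other gene, the antisense gene Gm32710, overlapped exons of a member, Cntn5, over 290 bases. Gm32710 itself had at most 2.86 normalized counts in any library. Sequence outside annotated transcripts was not compared.

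The members share a feature that did not choose them, their size in the genome. Cntn5 spans 1244 kb and Cntn4 1022 kb, Cntn3 410 kb, Cntn6 371 kb and Cntn1 291 kb, against a median of 17.4 kb for 21974 protein-coding genes in the table. Cntn2 spans 33.8 kb and is longer than 68.2% of protein-coding genes, whereas the other 5 are longer than 97.3% or more. Exon length ranges from 4.53 kb for Cntn5 to 9.43 kb for Cntn1.

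Cntn3, Cntn6 and Cntn4 lie on chromosome 6 together with Chl1. Chl1, an adhesion protein of the L1 family, begins at 103510586 and ends 743 kb before Cntn6, and Cntn4 begins 814 kb after the end of Cntn6. Chl1 had no read in any E13.5 library. It was at 562.0 to 623.7 normalized counts at E16.5, at 225.5 to 300.2 at P0 and at 1.96 to 5.06 at P3. It thus rose at least 184-fold to E16.5 (limma log2 fold change 9.23, SE 0.33, adjusted p 2.02e-13), fell by 1.15 to P0 (adjusted p 0.00674) and fell by 6.04 to P3 (adjusted p 5.73e-11). The P0 change was -0.49 with equal library totals, where its adjusted p was 0.182.

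Genes farther out on chromosome 6 differed from this course. Pdzrn3, 3115 kb before Cntn6, differed by 0.04 on the log2 scale between E13.5 and E16.5 (limma adjusted p 0.797) and rose by 1.24 to P0 (adjusted p 6.27e-07). Trnt1, an enzyme that completes transfer RNA ends, fell by 1.58 at E16.5 (adjusted p 3.83e-12) and rose by 1.47 at P3 (adjusted p 1.55e-11). Il5ra, a cytokine receptor subunit, had no read at E13.5 or P3 and was at 34.7 ± 1.66 at P0. Among the 3 nearest genes on each side, those whose mean was highest at E16.5 were thus Chl1 and Cntn3.

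**Figure D4:**
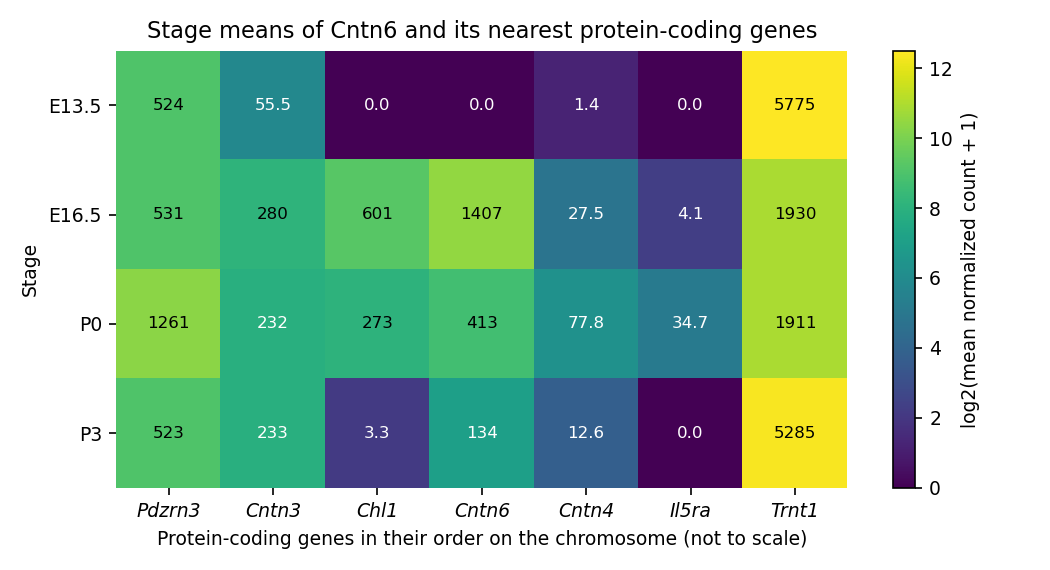
Stage means (colour, log2 of mean normalized count + 1; numbers, mean normalized count) of Cntn6 and the 3 nearest protein-coding genes on each side, in chromosomal order along the x axis and not to scale, with the 4 stages on the y axis. Chl1 and Cntn6 both go from 0 at E13.5 to their highest mean at E16.5 (601.4 and 1407), whereas Trnt1 is lowest at E16.5 and P0.

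The contactin-associated proteins, membrane proteins that bind contactins in cis, were also mostly lower at E13.5 and P3 than at P0. Of 7 genes, 6 passed as higher at E16.5 against E13.5 and none as lower, against the 45.5% of all genes called higher. One of the 6 is Cntnap5b, which had no more than 3 reads in any library of either stage. Cntnap2, a partner of Cntn2 in myelinated axons, rose from 70.9 ± 10.6 to 365.2 ± 32.2 (limma log2 fold change 2.36, adjusted p 1.22e-08). Cntnap4 rose from 8.45 ± 5.84 to 114.7 ± 38.4. Cntnap5a and Cntnap5c rose at least 4.50-fold and 7.44-fold, and Cntnap1, the partner of Cntn1, rose from 1.45 ± 2.51 to 5.72 ± 1.52 (adjusted p 0.00892), although the 2 stages overlapped. Cntnap3 was at 1.40 ± 2.43 and 4.87 ± 5.91 (adjusted p 0.209).

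At P0 against E16.5, 4 of the 7 were higher and none lower, against 27.6% and 33.4% of all genes. Cntnap4 rose to 336.4 ± 29.8 (limma adjusted p 0.00695), Cntnap5a to 128.5 ± 27.5 (adjusted p 0.000395), Cntnap5b at least 29.9-fold to 85.5 ± 2.86 (adjusted p 2.00e-07) and Cntnap3 to 18.4 ± 8.87 (adjusted p 0.0203). Without P0 library 4 the number was 2. Cntnap2 stayed at 345.6 ± 30.3 (adjusted p 0.752) and Cntnap5c was at 36.1 ± 7.40 (adjusted p 0.496). At P3 against P0, 6 of 7 were lower, against 36.4% of all genes, all but Cntnap1, which was at 12.3 ± 2.096 and 10.3 ± 6.07 (adjusted p 0.603). Cntnap2 fell by 2.99, Cntnap4 fell by 2.70 and Cntnap5a fell by 5.47 on the log2 scale (limma adjusted p up to 5.53e-05).

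**Figure D5:**
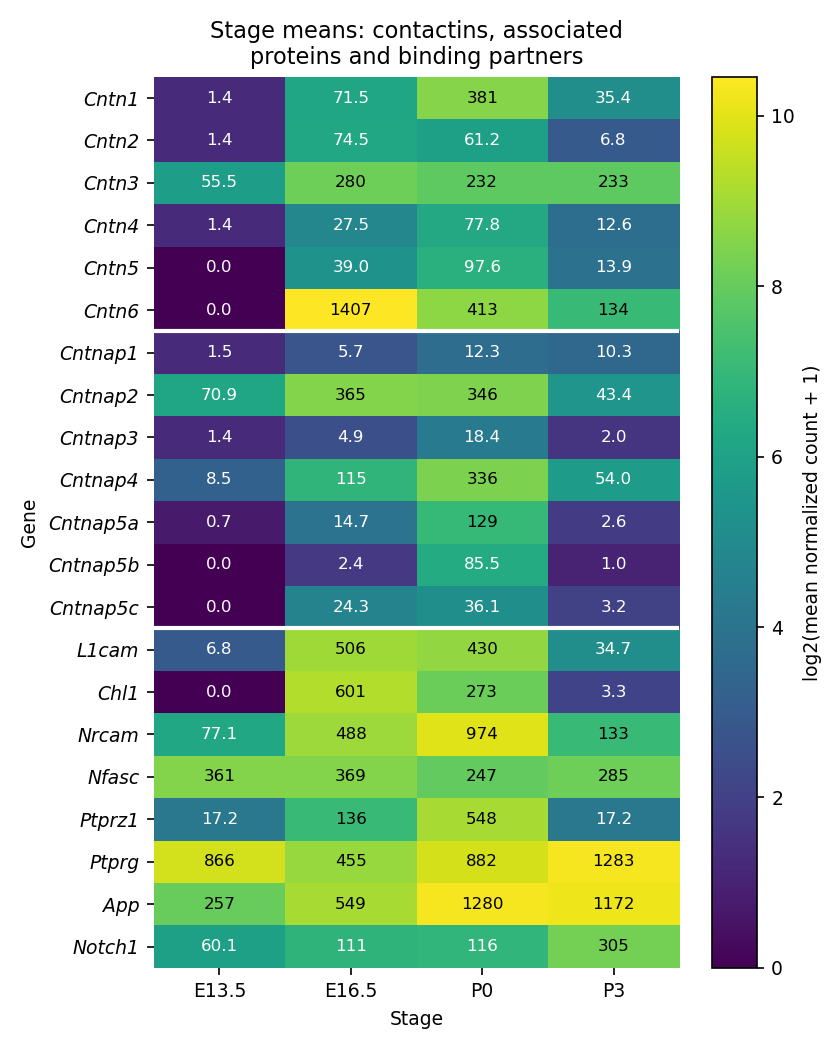
Stage means (colour, log2 of mean normalized count + 1; numbers, mean normalized count of 3 libraries) of the 6 contactins, the 7 contactin-associated proteins and 8 binding partners (y axis) at the 4 stages (x axis). L1cam and Chl1 are low at E13.5 (6.77 and 0) and P3 (34.7 and 3.31) and high at E16.5, while Nfasc lies between 247.5 and 369.3 at all stages.

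Among 18 listed binding partners, the count was 11 higher and 5 lower in E16.5 against E13.5, 8 and 4 in P0 against E16.5, and 7 and 6 at P3 against P0. With equal library totals the counts were 13 and 3, 12 and 0, and 2 and 11, so the balance at the last 2 steps depended on the scaling. Over all genes 45.5% and 34.6%, 27.6% and 33.4%, and 40.1% and 36.4% were called higher and lower, and the partners' counts at the last step are near those shares. The L1 family, adhesion proteins that bind contactins, split by member. L1cam rose from 6.77 ± 3.13 to 505.5 ± 64.0 at E16.5 (limma log2 fold change 6.12, SE 0.30, adjusted p 8.28e-12), was at 430.4 ± 46.4 at P0 (adjusted p 0.524) and fell by 3.61 to P3 (adjusted p 1.02e-08). Nrcam rose at E16.5 by 2.64 and at P0 by 1.01, and fell by 2.87 at P3 (limma adjusted p up to 5.75e-05). Nfasc was at 361.2 ± 52.5 at E13.5 and 369.3 ± 14.7 at E16.5 (adjusted p 0.802). Its fall at P0 by 0.58 (adjusted p 0.00245) turned to 0.08 with equal library totals.

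Receptor phosphatases that bind contactins differed from one another. Ptprz1, a partner of Cntn1, rose from 17.2 ± 17.1 at E13.5 to 136.3 ± 11.6 at E16.5 and to 548.2 ± 11.9 at P0, and was at 17.2 ± 4.81 at P3 (limma adjusted p 3.02e-06, 0.000887 and 2.60e-08). Ptprg, which binds Cntn3, Cntn4, Cntn5 and Cntn6, fell by 0.93 at E16.5 (adjusted p 8.21e-08) and rose by 0.95 at P0 (adjusted p 1.41e-07). P3 differed from P0 by 0.54 (adjusted p 5.21e-05), but by -0.30 under equal library totals. Ptpra, a partner of Cntn1, fell by 0.62 at P0 (adjusted p 4.29e-06) and rose by 0.93 at P3 (adjusted p 1.73e-08), changes of 0.04 and 0.09 under equal library totals. App, the amyloid precursor protein, which binds several contactins, rose at E16.5 by 1.13 and at P0 by 1.21 (limma adjusted p up to 4.41e-05). Notch1 was below 164 normalized counts in every library up to P0 and rose to 305.3 ± 20.3 at P3 (adjusted p 7.42e-05, or 0.0527 under equal library totals). Among the other listed partners, Aplp1 fell by 1.97 and Notch2 fell by 1.32 at E16.5 (limma adjusted p up to 1.04e-06). Fyn rose by 1.73 at P3 (limma adjusted p 1.72e-12).

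Genes that build and remodel the GPI anchor, on which contactins depend for their place at the membrane, were mostly lower at E16.5 and higher at P3 on the deposited scale. Of 27 tested among 28 listed, 4 were higher and 18 lower in E16.5 against E13.5, 2 and 16 in P0 against E16.5, and 23 and 2 at P3 against P0. Over all genes 34.6% and 33.4% were lower at the first 2 steps and 40.1% higher at the last. With equal library totals the counts were 8 and 13, 10 and 9, and 11 and 8. Pigm, a mannosyltransferase of the pathway, fell from 1189 ± 22.2 to 93.1 ± 25.3 at E16.5 (limma log2 fold change -3.70, adjusted p 1.86e-11) and rose from 78.2 ± 16.9 to 1278 ± 113 at P3 (4.03, adjusted p 1.01e-11). Pigq fell by 3.10 at E16.5, and Pgap3 and Mppe1, which remodel the finished anchor, rose by 1.90 and 1.75 (adjusted p up to 1.59e-05). At P0, Pigq and Pigp rose by 1.15 and 0.36 and Pigx and Pigh fell by 1.56 and fell by 1.83 (limma adjusted p up to 0.00647). At P3, Gpaa1, a subunit of the enzyme that attaches the anchor, rose by 2.16, whereas Pigf and Mppe1 fell by 0.67 and fell by 3.89 (limma adjusted p up to 2.52e-05).

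Other adhesion genes of the immunoglobulin family that are known from neurons moved in number. Of 19, 17 were higher and 1 lower in E16.5 against E13.5, 12 and 1 in P0 against E16.5, and 1 and 15 at P3 against P0. Over all genes 45.5% and 34.6%, 27.6% and 33.4%, and 40.1% and 36.4% were called higher and lower. Median log2 fold changes of the 19 were 3.205, 0.927 and -1.743, against 0.31, -0.01 and 0.05 over all genes. With equal library totals those over all genes were 0.84, 0.68 and -0.86. Dscaml1 rose from 66.9 ± 10.5 to 2278 ± 176 at E16.5 (limma log2 fold change 5.08, adjusted p 2.53e-15) and Dscam from 30.3 ± 12.5 to 621.1 ± 26.1 (4.38, adjusted p 2.53e-11). At P0 the GPI-anchored Lsamp rose by 3.78 and the netrin receptor Dcc by 3.42, and Sdk2 fell by 0.63 (limma adjusted p up to 0.000961), the last at 0.04 with equal library totals. At P3 Lsamp fell by 5.06 and Dcc fell by 7.49, whereas Cadm1, an adhesion gene also used by spermatogenic cells, rose by 1.12 (adjusted p up to 4.06e-09). In reads Cadm1 was at 11180 to 12969 at P0 and at 12994 to 14159 at P3, so the size of its rise depends on the scaling. Most listed genes of neuronal adhesion thus had, like most contactins, a lower level at E13.5 than at E16.5 and at P3 than at P0.

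Markers of other cell types moved too. Of 10 neuron markers, 9 were higher and none lower at E16.5 against E13.5, where 45.5% of all genes were higher. At P3 against P0, 7 were lower and 1 higher, where 36.4% and 40.1% of all genes were. Their summed level ranged, in stage order, over 1248 to 1299, 4226 to 4647, 5433 to 5762 and 5360 to 6249 normalized counts. In P3 libraries Nefm alone was at 4558 ± 393. The E13.5 sum was mostly Tubb3 (844.5 ± 29.7), whose mean was 1586 ± 214 in E16.5 libraries and 363.5 ± 51.3 in P3 libraries. Elavl4 ranged over 274.5 to 319.8 in E13.5 libraries, 265.9 to 341.1 in E16.5 libraries and 71.9 to 138.6 in P3 libraries. Snap25 and Syt1 did not exceed 3 reads in any E13.5 library. Snap25 averaged 240.5 ± 39.1 in P0 libraries and 275.2 ± 5.41 in P3 libraries. Rbfox3, which encodes the neuronal nuclear antigen NeuN, went from 4.59 ± 3.37 in E13.5 libraries to 1065 ± 99.3 in E16.5, 1173 ± 94.5 in P0 and 245.7 ± 27.1 in P3 libraries. Schwann cell or glia markers (8 genes) summed to 1878 to 2424, 1796 to 2114, 2209 to 2713 and 2264 to 2858 in stage order, with Gfap at or under 3 reads at E13.5.

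Somatic testis markers differed between stages and between libraries of a stage. In stage order, Sertoli markers (6 genes) summed to 1168 to 1737, 2547 to 5344, 10370 to 19655 and 4187 to 5982. Leydig markers (6) summed to 573.5 to 729.4, 623.1 to 7763, 1133 to 6201 and 179.2 to 267.5, with Insl3 at or under 3 reads at E13.5 and, with Lhcgr, at 0 at P3. Peritubular or smooth muscle markers (5) summed to 171.0 to 224.2, 1253 to 1867, 3699 to 4160 and 796.6 to 915.7. Blood markers (6) summed to 68.4 to 442.9, 1791 to 2528, 1601 to 2563 and 294.6 to 545.6, macrophage markers (6) to 38.1 to 96.1, 991.2 to 1169, 138.0 to 307.5 and 276.3 to 299.4, and endothelial markers (5) to 4429 to 5192, 729.7 to 890.8, 1118 to 1314 and 592.1 to 747.0. Tagln (peritubular), Adgre1 and Ptprc (macrophage) and Emcn (endothelial) did not exceed 3 reads in any E13.5 library, nor Tagln at E16.5 or Adgre1 at P3. All other genes of these lists did exceed 3 reads in some E13.5 library, among them Acta2 (mean 69.0), Cd68 (46.7) and Tek (98.0). Mast cell markers (7) were at 0 at E13.5 and summed to 24.2 to 38.8, 1505 to 3210 and 3.04 to 322.1 later. Several sums were mostly a single gene. In E16.5 libraries the macrophage sum was mostly Cd68 (938.0 ± 97.9) and the blood sum mostly Alas2 (1476 ± 91.3). In P0 libraries the Sertoli sum was mostly Inha (13060 ± 4174). Among macrophage markers, Cd68, Csf1r and C1qb had their highest mean at E16.5, and Adgre1, Ptprc and C1qa at P0. The endothelial sum at E13.5 was mostly Pecam1 (4618 ± 400), and 4 of the 5 endothelial genes were higher at P0 than at E13.5. In that comparison, where 45.7% of all genes were higher, 9 of 10 neuron, 6 of 7 tested glia, 6 of 6 Sertoli, 3 of 5 Leydig, 4 of 4 peritubular, 5 of 5 blood, 3 of 5 macrophage and 6 of 6 mast cell markers were also higher. Their part in the contactin values was not tested.

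Genes most like each well-measured contactin were ranked by Pearson correlation of log2(normalized count + 1) over the 12 libraries, which fall into 4 stages, among 13619 other genes with a mean of at least 100 in their highest stage. For Cntn6 these were Tdrd9 (r = 0.998), Clgn, Gaa, Bcas1 and Nrip3 (0.996). Tdrd9 encodes a helicase of the piRNA pathway, which silences transposons in germ cells, and its stage means were 241.6, 21131, 11661 and 4847. Clgn encodes a chaperone of male germ cells, with means of 136.9, 4653, 2382 and 1546. The means of Gaa were 1496, 25941, 16438 and 8845. Those of Bcas1 were 141.7, 1566, 1223 and 810.4, and those of Nrip3 were 35.1, 1256, 735.6 and 346.0. For Cntn1 they were Trpv2 (r = 0.994), Spon1, Aqp2, Pik3c2g and Mlip, and for Cntn3 Grk4 (r = 0.984), Ehd2, Col5a1, Grk3 and Pabpc1l. The 3 lists share no gene.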

How the data were processed

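RNA sequencing covered 12 samples, 3 per stage. The deposited table holds 1 signal per gene and library, a read count that the authors divided by 1 size factor per library (RLE), per the name of the table. The submitters' processing notes name bcl2fastq 2.20, cutadapt 1.18, HISAT2 2.1.0, featureCounts 1.5.2, DESeq2 1.26.0 and the builds mm10 and GRCm38. The labels' protocols describe no molecular identifiers, so floors cover counting error only. The annotation release, the strand setting and the treatment of multi-mapping reads are not given in the sources used here. All values were whole multiples of 1 step per library (tolerance 0.001), which recovered the reads. Columns carry a stage and the numbers 1, 3 and 4, so each was assigned to its stage only.

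Members and lists were chosen with earlier results of these data known. Tests used limma 3.58.1 (R 4.3.3, trend, all 4 stages in 1 fit) on log2(normalized count + 1). Genes entered when 3 or more libraries reached 10 normalized counts, with Benjamini-Hochberg adjustment over all 22384 genes and a threshold of 0.05. A gene is at the floor of a stage when none of its libraries exceeds 3 reads, and a fold against it is a lower bound, computed with the highest floor of that stage. Named genes are all contactins and contactin-associated proteins and 8 set partners. Added to these, in the partner list and each other list, are the 2 highest and 2 lowest called changes at consecutive steps whose higher stage mean reaches 100. The 3 nearest protein-coding genes on each side of Cntn6 are also named. So are the 5 genes most correlated with each contactin whose highest stage mean is at least 100. Neuron markers were named after their values were seen. Alternatives were other size factors (TMM, median of ratios, poscounts, equal totals), pseudocounts of 0.1 and 10, other filters, a log2 change of at least 1, only the 2 stages compared, leaving out each library, a block on the column number (added after seeing the data), edgeR 4.0.16 and DESeq2 1.42.0 on recovered reads. The fits were tested on simulated data. Symbols matched 99.4% of rows, positions and exon lengths are from GENCODE M21, and Python 3.11.15 with pandas 2.3.3 was used for the other steps.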

Additional observations from a re-analysis of the deposited data

How the results depend on the processing

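The columns carry the numbers 1, 3 and 4 at every stage, which no label ties to a litter, batch or day. A block on them, added after seeing the data, kept the direction and side of the threshold of all 25 contactin results, and the counts of the 5 tested contactins stayed at 5, 3 and 4 at the 3 consecutive steps under the replicate block. Deviations of same-numbered libraries correlated over genes at -0.0356 to 0.0423 in 18 pairs, and 3 of 12 libraries matched best with their own number. Over 5 tested contactins and 5 comparisons, 21 of 25 results kept their side of the threshold under every alternative run. Of 585 alternative values 15 lost a call, 8 gained one and 1 turned direction. The one that turned was Cntn3 at P3 against P0, which was -0.83 with equal library totals in place of 0.01. A turn was counted only where either value passed the threshold, so turns between values that did not pass are not in these counts. Requiring a mean of at least 100 leaves fewer genes by construction: 2 of the 5 contactins differed among stages, 2 at E16.5 against E13.5, 1 at P0 against E16.5, 1 at P3 against P0, 2 at P0 against E13.5 and 1 at P3 against E16.5. Under it 2, 1 and 2 contactin-associated proteins and 9, 6 and 8 other adhesion genes changed at the 3 consecutive steps. Contactin-associated proteins changed at P0 against E16.5 numbered 2 in place of 4 with a pseudocount of 0.1 and with no filter (the cause was not tested), and 2 to 4 when 1 library was left out. A log2 change of at least 1 left 10 and 6 binding partners at the first 2 steps, 7 and 16 GPI anchor genes at the last 2, and 8 other adhesion genes at P0 against E16.5. The P0 mean of Cntn6 was 506 with median-of-ratios factors and 654.9 with equal totals. Counting noise bears most on values from few reads, and 44 to 65 reads per E13.5 library fell on the family. Those libraries had the most reads assigned to genes, but their mean size factor, 0.939, was the lowest of any stage. The floor of 3 reads stood for 3.15 to 3.26 normalized counts in them, against 1.45 to 1.63 in P0 libraries.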

Other observations

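The span of the contactin genes led to a count made after the values were seen. Among protein-coding genes tested, 966 span at least 200 kb in the annotation and 15977 span less. At E16.5 against E13.5, 63.9% of the long genes were higher and 21.3% lower by limma's test, against 44.7% and 39.9% of the shorter genes. At P0 against E16.5, 50.5% of the long genes were higher and 18.9% lower, against 28.3% and 39.3%. At P3 against P0, 21.6% were higher and 62.3% lower, against 46.4% and 36.2%. The medians of the log2 fold changes were 1.28, 0.59 and -1.004 for the long genes and 0.14, -0.09 and 0.19 for the others. Cntn1, Cntn3, Cntn4, Cntn5 and Cntn6 are among the long genes and Cntn2 is not. The difference between long and shorter genes was not tested, and which reads, exonic or intronic, were counted is not given in the sources used here.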
